A study of Mus musculus with 16 samples.

Results

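Metallothioneins and the genes that move zinc across membranes were followed in cultured progenitors of mouse inguinal white fat. The set was the 6 entries of the gene table with the symbols Mt1, Mt2, Mtf1, Slc30a1, Slc39a10 and Slc39a14, out of 27179 entries. All 6 passed the filter on low values and were among the 14005 genes tested. PDGFRb+ cells of C57BL/6 mice had been collected by flow cytometry, divided by the surface peptidase DPP4 and kept in culture with 10% serum. The groups were DPP4_pos APCs given isoproterenol, DPP4_pos APCs given vehicle (PBS), DPP4_neg APCs given isoproterenol and DPP4_neg APCs given vehicle, all C57BL/6 and all exposed for 4 h, with 4 RNA-seq libraries in each group. Isoproterenol activates beta-adrenergic receptors, the receptors through which sympathetic nerves act on fat. Its labelled dose was 10 mM, where micromolar amounts are usual in culture, and whether the unit is right was not checked. The labels state neither the age or sex of the mice nor whether the 4 libraries of a group came from separate animals or cultures, so the p-values measure the spread between libraries, which may be technical.

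Zinc is held in cells by metallothioneins, small cysteine-rich proteins that bind zinc and copper, of which Mt1 and Mt2 are the forms made in most mouse tissues. Free zinc activates the transcription factor MTF1, encoded by Mtf1, which binds metal response elements in front of Mt1, Mt2 and Slc30a1. Slc30a1 encodes ZnT1, which exports zinc through the plasma membrane, whereas Slc39a10 and Slc39a14 encode the importers ZIP10 and ZIP14. ZIP14 also carries iron that is not bound to transferrin, and manganese. Metallothionein RNA is known to rise in rodent brown fat in the cold.

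Mt1 and Mt2 lie side by side on chromosome 8. Sequence before an annotated start of each is shown because the set includes the factor that binds metal response elements. In GRCm38, Mt2 (Entrez 17750) runs from 94172618 to 94173567 and Mt1 (Entrez 17748) from 94178883 to 94180327, both on the plus strand with 5315 bases between them. The core of the metal response element was searched as TGCACNC or TGCGCNC on both strands in the 250 bases before the RefSeq start. The Mt2 window, chr8:94172368-94172617 on the plus strand, held 3 matches, at -223, -128 and -50 from the start. Mt1 had 1 match, at -23 in the window chr8:94178839-94179088. Slc30a1 had 1, at -43 in the window chr1:191906531-191906780. Both offsets count from a start that lies after the first base of the gene, 94178883 for Mt1 and 191906697 for Slc30a1. These matches thus lie inside the gene spans. Other starts of Mt1 and Slc30a1 were not searched, so their counts depend on the start used and are not comparable with that of Mt2. For these genes a stretch around the core is shown, because the window reaches into transcripts that start earlier. The stretch is chr8:94179055-94179084 for Mt1 and chr1:191906727-191906756 for Slc30a1, both on the plus strand. Capitals mark the core, which reads on the opposite strand in the match at -50 of Mt2 and in that of Slc30a1.
Mt2: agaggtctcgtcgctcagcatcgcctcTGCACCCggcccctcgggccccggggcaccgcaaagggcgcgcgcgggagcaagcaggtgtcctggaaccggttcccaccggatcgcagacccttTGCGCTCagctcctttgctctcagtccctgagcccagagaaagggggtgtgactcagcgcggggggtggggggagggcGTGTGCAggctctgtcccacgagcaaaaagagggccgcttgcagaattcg
Mt1: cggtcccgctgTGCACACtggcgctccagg
Slc30a1: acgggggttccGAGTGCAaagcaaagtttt

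Over the 32851 RefSeq windows (GRCm38.p6) searched in the same way, 21.4% held at least 1 core and 1.26% held at least 3. The windows of Mtf1 and Slc39a10, for which RefSeq has 2 starts, held none of these letters. The cAMP response element TGACGTCA, found in 1.55% of all windows, was in none of the 6 windows of the set. Its shorter core TGACG, found in 17.8% of all windows and contained in the longer element, occurred once, at -77 of Mt1. These are matches of letters in one window and say nothing of binding. Slc39a14 was not searched.

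Mt1 and Mt2 had the highest levels of the set per kilobase of exon, and the largest response to isoproterenol in DPP4_pos APCs. Within the set, the 2 buffer genes, the sensor and the 3 transporters all rose with isoproterenol in both populations. Other zinc transporters, described below, moved in both directions. The rises of Mt1, Mt2 and Slc39a14 were larger in DPP4_pos APCs. That of Mtf1 was larger by a small amount, a call lost under 3 alternatives, while for Slc30a1 and Slc39a10 no difference between the rises was called. Values below are normalized counts, the read counts divided by a size factor for each library.

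**Figure D1:**
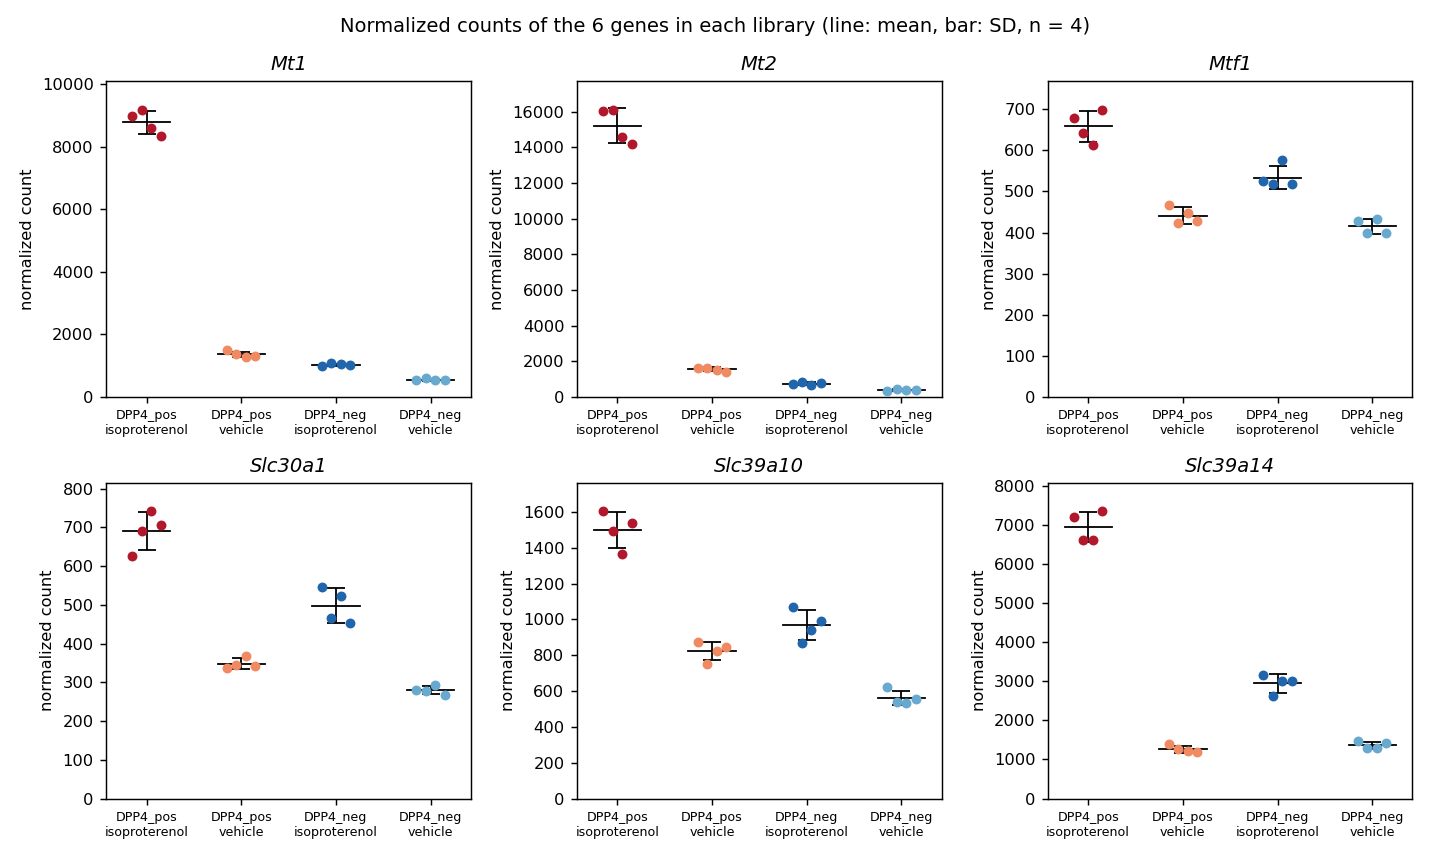
Normalized counts of the 6 genes in each of the 16 libraries, with 1 panel per gene, points for libraries, a line for the mean and a bar for the SD (n = 4). The 4 DPP4_pos isoproterenol libraries run from 8356 to 9189 for Mt1 and from 14181.8 to 16119 for Mt2.

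Mt1 had 8983, 9189, 8607 and 8356 normalized counts in DPP4_pos isoproterenol libraries, against 1485, 1367, 1286 and 1312 in DPP4_pos vehicle libraries. DPP4_neg APCs had 986.4, 1071, 1041 and 1022 normalized counts with isoproterenol, against 523.9, 598.8, 551.6 and 535.9 with vehicle. No 2 groups overlapped, and even the DPP4_pos cells without isoproterenol stood above the DPP4_neg cells that received it. How common such separation was over all genes tested is not given here, for this gene or those below. The response was a log2 change of 2.69 ± 0.05 (SE) in DPP4_pos APCs, a 6.45-fold rise (limma, Benjamini-Hochberg adjusted p = 6.46e-22). In DPP4_neg APCs it was 0.90 ± 0.05, a 1.86-fold rise (adjusted p = 3.42e-13).

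Mt2 moved further than Mt1 in DPP4_pos APCs. It had 16021, 16119, 14569.8 and 14182 normalized counts in DPP4_pos isoproterenol libraries, against 1646, 1607, 1529.5 and 1408 in DPP4_pos vehicle libraries. In DPP4_neg libraries the values were 727.2, 823.0, 654.6 and 771.8 with isoproterenol, against 349.2, 448.8, 360.1 and 387.7 with vehicle. Here too no groups overlapped, and the order of the 4 groups was that of Mt1. Mt2 rose 9.83-fold in DPP4_pos APCs (log2 change 3.30 ± 0.07, adjusted p = 2.56e-20) and 1.93-fold in DPP4_neg APCs (0.95 ± 0.07, adjusted p = 2.05e-10). An annotated antisense gene, Gm45774, overlaps the exons of Mt2 and shares 45.8% of its 50-base words. Whether strand was kept is not stated, so reads of the pair cannot be told apart. No 50-base word of Mt1 was found in the transcripts of another gene.

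Together Mt1 and Mt2 took 0.122% to 0.138% of the reads in genes in DPP4_pos isoproterenol libraries, against 0.0177% to 0.0203% in DPP4_pos vehicle libraries. Their share was 0.0105% to 0.0117% in DPP4_neg isoproterenol libraries, against 0.00546% to 0.00653% in DPP4_neg vehicle libraries.

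Mtf1, the zinc sensor (chromosome 4, 124802549 to 124849800, plus strand, Entrez 17764), changed least. It had 678.6, 642.9, 613.8 and 699.0 normalized counts in DPP4_pos isoproterenol libraries, against 466.9, 422.1, 448.1 and 427.5 in DPP4_pos vehicle libraries. Among DPP4_neg libraries it had 524.8, 517.6, 575.8 and 517.2 with isoproterenol, against 427.8, 399.2, 433.5 and 399.2 with vehicle. The isoproterenol libraries stood above the vehicle libraries in both populations, and the 2 vehicle groups overlapped. The rise was 1.49-fold in DPP4_pos APCs (log2 change 0.58 ± 0.05, adjusted p = 2.62e-09) and 1.29-fold in DPP4_neg APCs (0.36 ± 0.05, adjusted p = 5.49e-06). Mtf1 shares 7.78% of its 50-base words with 1110065P20Rik on the opposite strand. That gene averaged 85.6 ± 8.24 normalized counts in DPP4_pos isoproterenol and 115.1 ± 7.88 in DPP4_pos vehicle libraries, and 181.9 ± 3.63 in DPP4_neg isoproterenol and 180.4 ± 9.94 in DPP4_neg vehicle libraries. Its part in the values of Mtf1 was not tested.

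Slc30a1, the zinc exporter (chromosome 1, 191906697 to 191913248, plus strand, Entrez 22782), rose in both populations. It had 624.7, 689.9, 740.9 and 706.6 normalized counts in DPP4_pos isoproterenol libraries, against 336.1, 345.6, 368.4 and 343.0 in DPP4_pos vehicle libraries. DPP4_neg libraries had 546.6, 465.5, 523.7 and 452.8 with isoproterenol, against 280.6, 276.5, 292.3 and 267.3 with vehicle. The order differed from that of the metallothioneins, because every DPP4_neg isoproterenol library stood above every DPP4_pos vehicle library. Slc30a1 rose 1.98-fold in DPP4_pos APCs (log2 change 0.98 ± 0.06, adjusted p = 4.48e-12) and 1.77-fold in DPP4_neg APCs (0.83 ± 0.06, adjusted p = 2.08e-10). An antisense gene that shares 8.01% of its words, 1700034H15Rik, had at most 5.07 normalized counts in any library.

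Slc39a10 encodes ZIP10, an importer that MTF1 represses in mouse cells (chromosome 1, 46807544 to 46925776, minus strand, Entrez 227059). It had 1603, 1493, 1366 and 1537 normalized counts in DPP4_pos isoproterenol libraries, against 872.9, 752.8, 825.4 and 848.2 in DPP4_pos vehicle libraries. The DPP4_neg libraries had 1071, 871.5, 943.3 and 989.7 with isoproterenol, against 620.7, 538.4, 534.8 and 554.8 with vehicle. DPP4_pos vehicle and DPP4_neg isoproterenol libraries overlapped by a single pair, at 872.9 and 871.5, and the other neighbours in the order did not. The rise was 1.82-fold in DPP4_pos APCs (log2 change 0.86 ± 0.06, adjusted p = 4.46e-11) and 1.72-fold in DPP4_neg APCs (0.78 ± 0.06, adjusted p = 5.19e-10). The exporter and this importer thus rose in the same libraries.

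Slc39a14, the importer of zinc, iron and manganese that inflammatory cytokines induce in liver, was the transporter that rose most (chromosome 14, 70303467 to 70351452, minus strand, Entrez 213053). It had 7195, 6631, 6621 and 7349 normalized counts in DPP4_pos isoproterenol libraries, against 1392, 1271, 1219 and 1183 in DPP4_pos vehicle libraries. In DPP4_neg APCs it had 3169, 2613, 3019 and 3002 with isoproterenol, against 1465, 1289, 1294 and 1411 with vehicle. The 2 vehicle groups overlapped, and the isoproterenol groups stood apart from them and from each other. Slc39a14 rose 5.49-fold in DPP4_pos APCs (log2 change 2.46 ± 0.06, adjusted p = 9.37e-20) and 2.16-fold in DPP4_neg APCs (1.11 ± 0.06, adjusted p = 2.98e-13).

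All 6 genes thus rose in DPP4_pos APCs, where 39.4% of all genes tested rose and 11.5% rose at least 2-fold. All 6 rose in DPP4_neg APCs, where 32.1% of all genes rose and 6.27% rose at least 2-fold. The median log2 change of the 6 was 1.72 in DPP4_pos APCs, against -0.05 over all genes, and 0.86 in DPP4_neg APCs, against -0.02 over all genes. A rise past the threshold was therefore common in these cells, and the sizes carry more than the calls. The 6 genes were chosen with earlier results of these data known. Neither their counts nor their medians thus test the set against all genes. By size of rise among the 14005 genes in DPP4_pos APCs, Mt2 was number 211, Mt1 297 and Slc39a14 347. Slc30a1 was number 1656, Slc39a10 1977 and Mtf1 3081. In DPP4_neg APCs the ranks ran from 798 for Slc39a14 to 2604 for Mtf1, with Mt2 at 938.

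**Figure D2:**
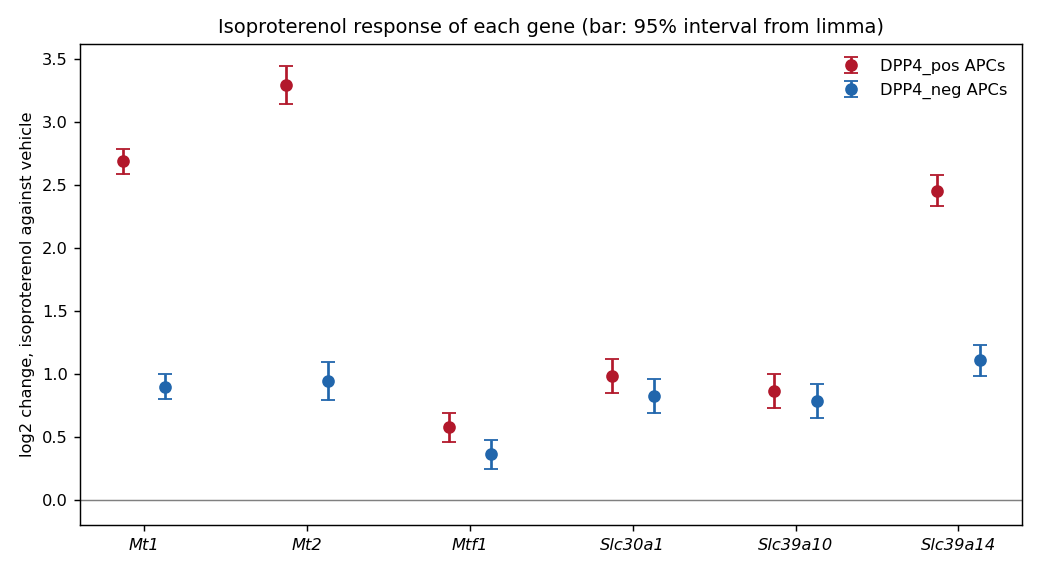
Log2 change with isoproterenol against vehicle for each gene, in DPP4_pos APCs (red) and DPP4_neg APCs (blue), with 95% intervals from limma. The intervals of the populations lie far apart for Mt1, Mt2 and Slc39a14 and overlap for Mtf1, Slc30a1 and Slc39a10.

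The question whether the populations responded differently was put to the difference of the log2 responses, DPP4_pos minus DPP4_neg. It was higher in 4 of the 6 genes, where 31.6% of all genes tested had a higher and 62.6% a higher or lower response. Mt2 led with 2.35 ± 0.10 (adjusted p = 3.82e-14), followed by Mt1 with 1.79 ± 0.07 (adjusted p = 3.93e-15) and Slc39a14 with 1.35 ± 0.08 (adjusted p = 1.03e-11). Mtf1 differed by 0.21 ± 0.08 (adjusted p = 0.0208), a call that was lost under other scalings: the adjusted p was 0.167 after quantile normalization, 0.0749 with TMM factors and 0.0559 in edgeR. For Slc30a1 the difference was 0.16 (95% interval -0.03 to 0.35, adjusted p = 0.14), and for Slc39a10 it was 0.08 (-0.11 to 0.27, adjusted p = 0.465), or -0.16 after quantile normalization. Neither interval shows that the responses were equal.

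Without isoproterenol the populations already differed in the metallothioneins. Mt2 averaged 1548 ± 105 normalized counts in DPP4_pos vehicle libraries and 386.5 ± 44.6 in DPP4_neg vehicle libraries (SD, n = 4 each), 4.01-fold higher (log2 difference 2.003 ± 0.074, adjusted p = 3.58e-16). Mt1 averaged 1362 ± 88.4 in DPP4_pos vehicle and 552.5 ± 32.9 in DPP4_neg vehicle libraries, 2.46-fold higher (1.30 ± 0.05, adjusted p = 4.62e-16). Slc39a10 was 1.47-fold higher (0.55 ± 0.06, adjusted p = 1.3e-07) and Slc30a1 1.25-fold higher (0.32 ± 0.06, adjusted p = 0.000176) in DPP4_pos vehicle libraries. So 4 of the 6 genes were higher, where 31.6% of all genes tested were.

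Mtf1 and Slc39a14 were not called between the vehicle groups. The log2 difference of Mtf1 was 0.09 (95% interval -0.03 to 0.20, adjusted p = 0.162) and that of Slc39a14 was -0.11 (-0.23 to 0.01, adjusted p = 0.112). Without replicate 1 of DPP4_pos vehicle, the highest of its group, Slc39a14 was called lower in DPP4_pos APCs (-0.16, adjusted p = 0.0281). In either case Slc39a14, unlike Mt1 and Mt2, was not called higher in DPP4_pos APCs given vehicle.

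With isoproterenol all 6 genes were higher in DPP4_pos APCs, where 37.4% of all genes tested were. Mt2 averaged 15223 ± 992 normalized counts in DPP4_pos isoproterenol libraries and 744.2 ± 71.4 in DPP4_neg isoproterenol libraries, 20.5-fold higher (log2 difference 4.36 ± 0.07, adjusted p = 6.11e-22). By this difference Mt2 was number 37 of the 14005 genes, and the other members ranged from number 141 (Mt1) to 4283 (Mtf1). Mt1 averaged 8784 ± 373 in DPP4_pos isoproterenol and 1030.3 ± 35.5 in DPP4_neg isoproterenol libraries, 8.52-fold higher (3.09 ± 0.05, adjusted p = 1.76e-22). Slc39a14 was 2.36-fold higher (1.24 ± 0.06, adjusted p = 3.57e-14). The remaining 3 differed less, with 1.55-fold for Slc39a10, 1.39-fold for Slc30a1 and 1.23-fold for Mtf1, the largest adjusted p being 3.99e-05 for Mtf1. These 5 comparisons share libraries, so their values are set side by side and not counted as separate support.

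Which metallothionein gave more reads depended on the population. The ratio of Mt2 to Mt1 reads was 1.73 ± 0.04 in DPP4_pos isoproterenol libraries, against 1.14 ± 0.06 in DPP4_pos vehicle libraries (SD, n = 4). It was 0.722 ± 0.064 in DPP4_neg isoproterenol libraries, against 0.698 ± 0.046 in DPP4_neg vehicle libraries. All 8 DPP4_pos libraries lay above 1, from 1.07 to 1.78, and all 8 DPP4_neg libraries below it, from 0.629 to 0.768. The log2 ratio was higher by 0.61 with isoproterenol in DPP4_pos APCs (exact permutation test, two-sided p = 0.0286, 0.0381 adjusted over 4 comparisons). With 4 libraries against 4, 0.0286 is the smallest p this test can give. In DPP4_neg APCs the difference was 0.05 (exact p = 0.6), and 0.02 to 0.11 when any 1 library was left out. Between populations it was 1.27 with isoproterenol and 0.70 with vehicle, each at that smallest exact p. The ratio was examined after the values of Mt1 and Mt2 had been seen, so its p-values are not those of a planned test. It comes from the values already tested and is another view of them, and the reads of Gm45774 described above could enter it.

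**Figure D3:**
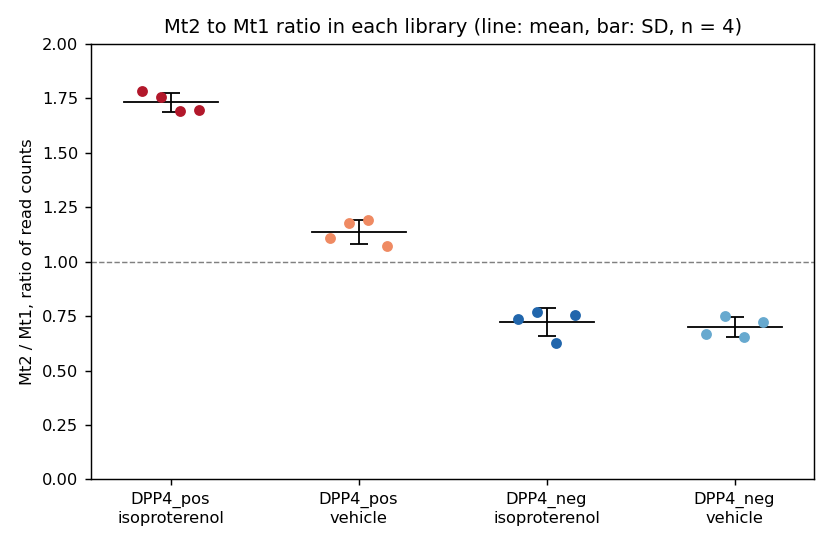
Ratio of Mt2 to Mt1 read counts in each library, by group, with the mean as a line and the SD as a bar (n = 4). The dashed line at 1 marks equal read counts, with all DPP4_pos libraries above it and all DPP4_neg libraries below.

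Between genes, levels were compared per kilobase of the union of annotated exons. In DPP4_pos isoproterenol libraries Mt2 averaged 25889 and Mt1 7049.6 normalized counts per kilobase, against 2632 and 1093 in DPP4_pos vehicle libraries. In DPP4_neg isoproterenol libraries they averaged 1266 and 826.9 per kilobase, against 657.3 and 443.5 in DPP4_neg vehicle libraries. Slc39a14 came next in all 4 groups, followed by Slc39a10, Slc30a1 and Mtf1. In DPP4_pos isoproterenol libraries these averaged 1335, 272.8, 131.7 and 82.6 per kilobase. In DPP4_neg vehicle libraries the levels of Slc30a1 and Mtf1 per kilobase, 53.2 and 52.0, overlapped. The order of Mt2 over Mt1 in DPP4_neg APCs depends on the length used. With the shortest Mt1 transcript (549 bases) and the longest Mt2 transcript (511 bases), DPP4_neg vehicle libraries averaged 1006 per kilobase for Mt1 and 756.3 for Mt2, whereas DPP4_pos isoproterenol libraries averaged 15999.7 for Mt1 and 29791 for Mt2.

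Mt3 and Mt4, the metallothioneins known from brain and from stratified epithelia, lie just before Mt2 on chromosome 8, from 94152607 to 94154148 and from 94137204 to 94139031. Both were below the filter and were not tested. Mt4 had 14, 12, 5 and 6 reads in DPP4_pos isoproterenol libraries and none in DPP4_pos vehicle libraries. Per size factor, its 37 reads were 21.97 times a floor of 3 counts over the vehicle group. That value has no interval for the counting error of the 37 reads. It had 1 read in DPP4_neg isoproterenol and none in DPP4_neg vehicle libraries. Mt3 had 11, 6, 8 and 2 reads in DPP4_pos isoproterenol libraries, against 1, 0, 0 and 1 in DPP4_pos vehicle libraries, a ratio of 24.0 per size factor (exact 95% interval 6.04 to 208.7). It had 4 reads in DPP4_neg isoproterenol and 2 in DPP4_neg vehicle libraries, a ratio of 2.81 (0.402 to 31.0). The intervals cover counting error only, and the floor covers only that of the DPP4_pos vehicle group.

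The other zinc transporters and buffers moved in both directions. A list of 29 zinc transporters and buffers, 6 of them the genes above, had 13 other members that passed the filter. Of these 13, 6 rose, 5 fell and 2 were not called in DPP4_pos APCs, with a median log2 change of 0.08, against -0.05 over all genes. In DPP4_neg APCs 6 rose, 3 fell and 4 were not called, with a median of 0.11, against -0.02 over all genes. The response was higher in DPP4_pos than in DPP4_neg APCs for 7, lower for 5 and not called for 1. Between populations, 4 were higher and 6 lower in DPP4_pos vehicle libraries, and 7 higher and 5 lower in DPP4_pos isoproterenol libraries, against their DPP4_neg counterparts. Over all genes tested, 39.4% rose and 43.3% fell in DPP4_pos APCs, and 32.1% rose and 33.6% fell in DPP4_neg APCs. The response of all genes was higher in DPP4_pos APCs for 31.6% and lower for 31%. Of all genes, 31.6% were higher and 35% lower in DPP4_pos than in DPP4_neg vehicle libraries, and 37.4% were higher and 37% lower in DPP4_pos than in DPP4_neg isoproterenol libraries.

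**Figure D4:**
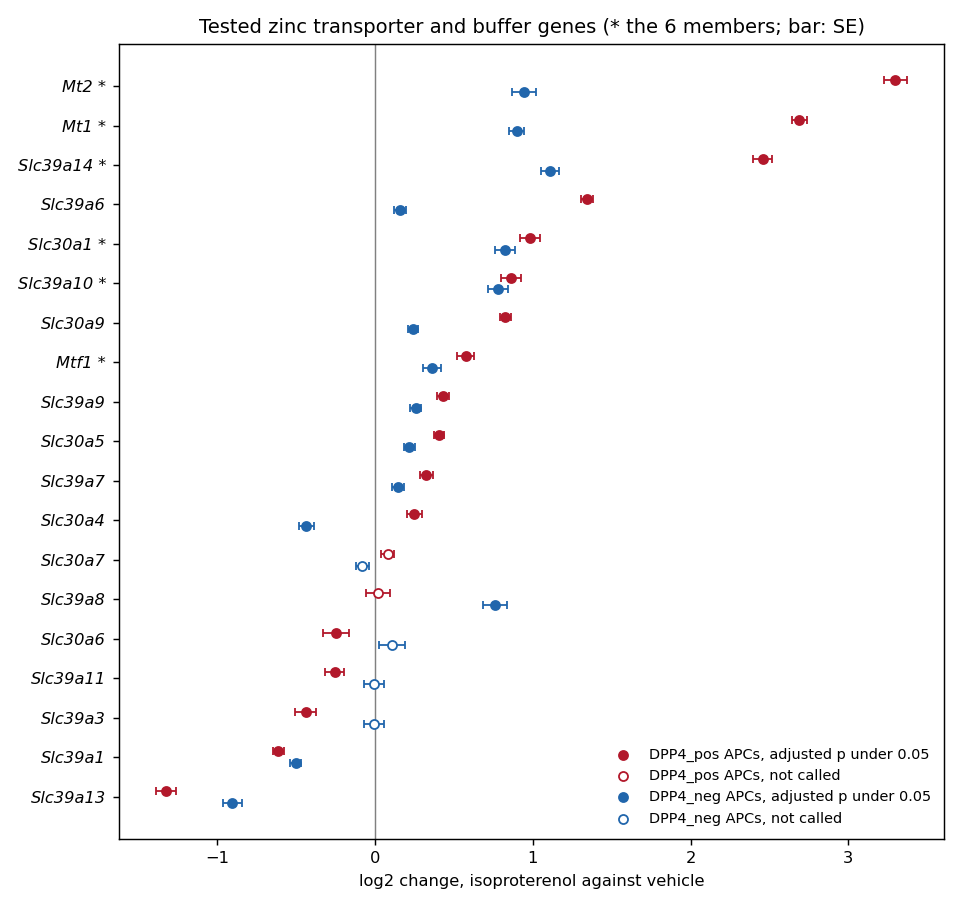
Log2 change with isoproterenol against vehicle for the 19 tested zinc transporter and buffer genes, in DPP4_pos APCs (red) and DPP4_neg APCs (blue), with bars for the SE; filled points passed an adjusted p of 0.05, and asterisks mark the 6 genes of the set. Mt2, Mt1 and Slc39a14 lie farthest right in DPP4_pos APCs, and Slc39a13 lies farthest left in both populations.

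Slc39a6 encodes ZIP6, which forms a heteromer with ZIP10. It averaged 4046 ± 168 normalized counts in DPP4_pos isoproterenol libraries and 1592 ± 18.2 in DPP4_pos vehicle libraries, a 2.54-fold rise (log2 change 1.34 ± 0.04, adjusted p = 8.98e-19). In DPP4_neg APCs it averaged 2207 ± 79.5 with isoproterenol and 1977 ± 70.1 with vehicle (0.16 ± 0.04, adjusted p = 0.000752). The difference of these responses was 1.19 ± 0.05 (adjusted p = 3.54e-14), whereas that of its partner Slc39a10 was not called. Slc39a13 encodes ZIP13, whose loss in mice increases beige adipocytes. It averaged 384.3 ± 26.05 in DPP4_pos isoproterenol libraries and 961.8 ± 39.1 in DPP4_pos vehicle libraries (-1.32 ± 0.06, adjusted p = 9.9e-15). In DPP4_neg APCs it averaged 748.5 ± 74.5 with isoproterenol and 1395 ± 37.0 with vehicle (-0.90 ± 0.06, adjusted p = 2.06e-11), so it fell in both populations.

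Slc39a8 encodes ZIP8, the closest relative of ZIP14. It averaged 254.6 ± 10.5 normalized counts in DPP4_pos vehicle libraries and 113.1 ± 5.24 in DPP4_neg vehicle libraries, 2.24-fold higher (log2 difference 1.16 ± 0.08, adjusted p = 9.1e-12). With isoproterenol it averaged 259.4 ± 27.5 in DPP4_pos and 192.2 ± 6.70 in DPP4_neg APCs. Its log2 change with isoproterenol was 0.02 ± 0.08 in DPP4_pos APCs (adjusted p = 0.792) and 0.76 ± 0.08 in DPP4_neg APCs (adjusted p = 1.18e-08). The difference of the responses, -0.74 ± 0.11 (adjusted p = 3.92e-06), was opposite in sign to that of Slc39a14.

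Genes for copper and iron, metals that metallothionein or ZIP14 also handle, moved in both directions. Of 20 such genes, all tested, 12 rose and 7 fell in DPP4_pos APCs, where 39.4% of all genes tested rose and 43.3% fell. In DPP4_neg APCs 10 rose and 7 fell, where 32.1% of all genes rose and 33.6% fell. The 20 had a median log2 change of 0.35 in DPP4_pos APCs, against -0.05 over all genes, and 0.31 in DPP4_neg APCs, against -0.02 over all genes. Tfrc, the receptor that takes up iron bound to transferrin, averaged 2258 ± 89.6 normalized counts in DPP4_pos isoproterenol and 533.9 ± 30.3 in DPP4_pos vehicle libraries (2.08 ± 0.06, adjusted p = 8.3e-19). In DPP4_neg APCs Tfrc averaged 2072 ± 204 with isoproterenol and 1629 ± 63.0 with vehicle (0.34 ± 0.06, adjusted p = 1.87e-05), and the difference of the responses was 1.74 ± 0.08 (adjusted p = 7.96e-14). Slc40a1, which encodes the iron exporter ferroportin, fell in both, with a log2 change of -2.46 ± 0.25 in DPP4_pos (adjusted p = 9.21e-09) and -1.69 ± 0.25 in DPP4_neg APCs (adjusted p = 4.64e-06). Ftl1, the ferritin light chain, and Hmox1, heme oxygenase, rose in both populations. Ftl1 changed by 1.31 ± 0.04 in DPP4_pos and 1.46 ± 0.04 in DPP4_neg APCs, and Hmox1 by 2.08 ± 0.08 in DPP4_pos and 2.13 ± 0.08 in DPP4_neg APCs, with the largest adjusted p at 3.07e-16. The metalloreductases Steap3 and Steap4, which reduce iron and copper, fell in both, with log2 changes of -1.83 ± 0.06 and -1.62 ± 0.06 in DPP4_pos APCs and -1.28 ± 0.06 and -1.49 ± 0.06 in DPP4_neg APCs (largest adjusted p = 1.11e-14). Slc25a37, which brings iron into mitochondria, rose by 1.38 ± 0.06 in DPP4_pos (adjusted p = 6.3e-15) and by 1.24 ± 0.06 in DPP4_neg APCs (adjusted p = 9.53e-14). The copper transporter gene Slc31a2 fell by 1.32 ± 0.08 in DPP4_pos (adjusted p = 4.65e-13) and by 0.72 ± 0.08 in DPP4_neg APCs (adjusted p = 3.19e-08). Steap2 fell by 0.86 ± 0.06 in DPP4_pos (adjusted p = 3.4e-12) and by 1.54 ± 0.06 in DPP4_neg APCs (adjusted p = 2.67e-16).

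Between populations, 12 of the 20 copper and iron genes were higher and 3 lower in DPP4_pos vehicle libraries, where 31.6% of all genes were higher and 35% lower. In DPP4_pos isoproterenol libraries 13 were higher and 4 lower, where 37.4% of all genes were higher and 37% lower. With vehicle, Steap3, Steap4, Slc40a1 and Fth1, the ferritin heavy chain, were higher in DPP4_pos APCs, with log2 differences of 2.60 ± 0.06, 1.80 ± 0.06, 1.32 ± 0.25 and 1.09 ± 0.04 in the order named (largest adjusted p = 9.17e-05). Tfrc was lower there, by -1.61 ± 0.06 (adjusted p = 1.86e-16). With isoproterenol, Steap3 and Steap4 stayed higher in DPP4_pos APCs, at 2.05 ± 0.06 and 1.67 ± 0.06, and Steap1 was higher by 1.59 ± 0.07 (largest adjusted p = 9.4e-15).

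Over the 16 libraries the log2 levels of the 6 genes correlated with each other at Pearson's r of 0.796 (Mt2 with Slc39a14) to 0.995 (Mt1 with Mt2), and at 0.966 for Mtf1 with Slc39a14. These are descriptions over libraries that share 4 groups, and they largely restate the group means. Leaving out the 6 genes themselves, and by the same measure over 11394 genes, Mt1 was most like Ccdc174, Ltbp1 and BC005537, at 0.993 to 0.996, and Mt2 most like Spry2, Insig1 and Rtn4rl2, at 0.993 to 0.997. Mtf1 was most like Etnk1, Kbtbd2 and Tor1b, at 0.978 to 0.979. Slc30a1 was most like Slc22a15, Slc2a13 and Arrdc3, at 0.987 to 0.992, and Slc39a10 most like Acsl3, Il1rl1 and Sik3, at 0.986 to 0.990. Slc39a14 was most like Csnk1a1, Sipa1l2 and Tgfbr1, at 0.996 to 0.997.

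The libraries held 9823799 to 28627223 reads in genes, with 284 to 14259 reads for a gene of the set in a library, and replicates of a group varied by 3.44% to 11.5% (coefficient of variation). Dpp4 followed the sort, with means of 2223 normalized counts in DPP4_pos isoproterenol, 3053 in DPP4_pos vehicle, 9.89 in DPP4_neg isoproterenol and 21.1 in DPP4_neg vehicle libraries. The 3 markers of DPP4+ progenitors (Dpp4, Pi16 and Cd55), summed, did not follow the sort alone, with 40436 to 44894 in DPP4_pos isoproterenol, 3603 to 4101 in DPP4_pos vehicle, 6828 to 7291 in DPP4_neg isoproterenol and 139.4 to 179.1 in DPP4_neg vehicle libraries. All 6 stromal markers were detected in every group. Their sums were 356285 to 375801 in DPP4_pos isoproterenol and 487293 to 494938 in DPP4_pos vehicle libraries. They were 291656 to 330353 in DPP4_neg isoproterenol and 308768 to 318497 in DPP4_neg vehicle libraries. Most of each sum was Col1a1, Col3a1 and Dcn. In DPP4_pos APCs Pdgfrb averaged 2105 with isoproterenol and 7562 with vehicle, and Pdgfra 10639 and 33546, whereas Dcn averaged 58799 and 58156. In DPP4_neg APCs Pdgfrb averaged 9028 with isoproterenol and 11315 with vehicle, and Pdgfra 10597 and 13351. In bulk RNA, fewer cells of a type and less RNA per cell cannot be told apart. The 5 mural markers, summed, gave 4386 to 5364 in DPP4_pos isoproterenol and 6606 to 7742 in DPP4_pos vehicle libraries. They gave 74239 to 80748 in DPP4_neg isoproterenol and 107097 to 118379 in DPP4_neg vehicle libraries, with none at 0 in any group. Most of each sum was Acta2. In both populations the means of Acta2, Myh11 and Cnn1 were lower with isoproterenol, and those of Rgs5 and Abcc9 were higher. The 5 endothelial markers gave 1150.0 to 1266 in DPP4_pos isoproterenol and 1092 to 1148 in DPP4_pos vehicle libraries. They gave 168.0 to 204.8 in DPP4_neg isoproterenol and 156.3 to 187.4 in DPP4_neg vehicle libraries. These sums were mostly Tek and Kdr, with Cdh5 at a mean of at most 57.5, and hide opposite changes of the main genes. In DPP4_pos APCs Kdr averaged 683.9 with isoproterenol and 39.9 with vehicle, and Tek 410.2 and 1012.6. In DPP4_neg APCs Kdr averaged 121.5 with isoproterenol and 13.7 with vehicle, and Tek 35.3 and 140.3. The 7 macrophage and leukocyte markers gave 619.6 to 1302 in DPP4_pos isoproterenol and 534.0 to 954.5 in DPP4_pos vehicle libraries. They gave 736.1 to 1699 in DPP4_neg isoproterenol and 426.3 to 915.5 in DPP4_neg vehicle libraries. These ranges overlap, with Ptprc at a mean of at most 13.7. Among them Csf1r averaged 251.2 ± 27.3 in DPP4_pos isoproterenol and 147.8 ± 23.2 in DPP4_pos vehicle libraries. It averaged 692.8 ± 100.9 in DPP4_neg isoproterenol and 175.5 ± 21.1 in DPP4_neg vehicle libraries. Cd14 averaged 152.7 ± 19.9 with isoproterenol and 76.7 ± 7.71 with vehicle in DPP4_pos APCs, and 124.7 ± 58.3 and 57.2 ± 7.16 in DPP4_neg APCs. The means of Cd68, Adgre1, Lyz2 and Itgam were also higher with isoproterenol in both populations, with wide SDs, and that of Ptprc was higher only in DPP4_neg APCs. The 4 adipocyte markers summed to 1204 to 1302 in DPP4_pos isoproterenol, 4592 to 5064 in DPP4_pos vehicle, 3394 to 3992 in DPP4_neg isoproterenol and 10940 to 12175 in DPP4_neg vehicle libraries, with Lep at 0 reads in both isoproterenol groups. Sums of the DPP4+ progenitor, stromal, mural, endothelial and adipocyte markers thus moved with the populations, with isoproterenol or with both. So did Csf1r and the mean of Cd14 among the macrophage and leukocyte markers. The part of all these markers in the results for the 6 genes was not tested.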

How the data were processed

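RNA of cultured PDGFRb+ cells was sequenced from 500 ng of total RNA per library, in 16 libraries and 4 groups. Per the submitters' processing notes, the tools were DESeq2 1.6.3, featureCounts 1.4.6, HISAT2 2.0.1 and Trim Galore 0.4.1, and the builds mm10 and GRCm38. Neither strand nor annotation is stated there. In the deposited table each value is a normalized signal, the read count of a gene divided by the size factor of its library, per the file headers and the values. Division by the step of each library returned whole reads (tolerance 0.001) for 100% of 280334 values that exceed 0. Of 27179 entries, 958 had no symbol (0.0926% of normalized counts) and stayed unnamed.

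Genes with at least 10 normalized counts in at least 4 libraries, 14005, were tested on log2(normalized count + 1) with limma 3.58.1 (R 4.3.3, mean-variance trend) in a fit of 4 group means. Fold changes are on that scale, p-values are Benjamini-Hochberg adjusted over all genes tested, and an adjusted p under 0.05 was a call. The code was tested on simulated data. Alternatives were quantile and TMM scaling, pseudocounts, filters, edgeR 4.0.16 and DESeq2 1.42.0 on the recovered reads, other sample sets, a replicate block and leaving out each library. On these reads edgeR called 9543 genes and DESeq2 9175 in the DPP4_neg response, and 11581 and 11354 in the DPP4_pos response. Within groups, libraries correlated at r = 0.986 to 0.995 and differed by more than counting noise (chi-square per degree of freedom 1.61 to 9.21). Positions and windows are from RefSeq GRCm38.p6, matched for 25275 Entrez identifiers, with promoter windows for 5 of the 6 genes; exon lengths and overlaps are from GENCODE vM21.

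The members and lists were chosen with earlier results of these data known. All 6 members are named in every comparison. Other listed genes were named where called, at an absolute log2 difference of at least 1 and a mean of at least 50, and genes of like pattern are the 3 outside the set with the highest r for each member. The Mt2 to Mt1 ratio, Mt3 and Mt4 were examined after values were seen.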

Additional observations from a re-analysis of the deposited data

Results flagged for a closer look

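The isoproterenol response differed between populations, by the test of the difference of the log2 responses (DPP4_pos minus DPP4_neg, limma), for 4 of the 6 genes. The difference was 2.35 for Mt2, 1.79 for Mt1, 1.35 for Slc39a14 and 0.21 for Mtf1, with adjusted p-values of 3.82e-14, 3.93e-15, 1.03e-11 and 0.0208 in the order named. For Mt1, Mt2 and Slc39a14 the call held under every alternative run, and for Mtf1 it was lost under 3 of them. Across all genes tested, 62.6% had a response that differed between populations.

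In DPP4_neg isoproterenol libraries, replicate 3 stood apart for Mtf1, at 575.8 normalized counts where the other 3 libraries had 517.2 to 524.8. It was the only such library among the 24 groups of values checked (6 genes in 4 groups), and chance gives about 1 in 20. Over all leave-one-out fits the DPP4_neg response of Mtf1 ranged from 0.33 to 0.38, and it was called in each.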

How the results depend on the processing

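Of 774 alternatives for the log2 differences of the 6 genes, 768 kept direction and side of the threshold. The exceptions were in 2 comparisons. For the difference of responses, Mtf1 was no longer called after quantile normalization (0.13, adjusted p = 0.167), with TMM scaling (0.16, adjusted p = 0.0749) or in edgeR (0.17, adjusted p = 0.0559). Slc39a10 changed sign after quantile normalization (-0.16, adjusted p = 0.142), without a call either way. Between vehicle groups, Slc39a14 was called lower in DPP4_pos APCs without replicate 1 of DPP4_pos vehicle (-0.16, adjusted p = 0.0281; leave-one-out range -0.155 to -0.074) and with a replicate block (-0.11, adjusted p = 0.0384). The cause was not tested.

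There was little sign that the replicate numbers pair the libraries, though low correlations cannot exclude a paired design. Deviations of same-numbered libraries correlated at -0.231 to 0.131 over 24 pairs, with 1 pair over 0.1, and 6 of 16 libraries correlated best with their own number. The block gave 9295, 11612, 8854, 9393 and 10451 calls over all genes, against 9199, 11581, 8765, 9326 and 10418 without it, for the DPP4_neg response, the DPP4_pos response, their difference, and the populations with vehicle and with isoproterenol.

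No count of called genes moved by over 1.5 times under any setting. Leaving out 1 library, the log2 difference of the Mt2 to Mt1 ratio ranged from 0.58 to 0.63 (DPP4_pos, isoproterenol against vehicle), from 0.67 to 0.74 (populations, vehicle) and from 1.20 to 1.30 (populations, isoproterenol), these 3 at an exact p of 0.0571, the smallest that 3 libraries against 4 allow; for DPP4_neg isoproterenol against vehicle it ranged from 0.02 to 0.11, and was not called. These leave-outs were added after seeing the data. The response in DPP4_pos APCs was smallest after quantile normalization for Mt1 (2.34), Mt2 (2.90) and Slc39a14 (2.13). Depth limits Mt3 and Mt4, at 2 to 27 reads over a group for Mt3 and 0 to 37 for Mt4.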

Other observations

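Genes around the metallothionein cluster, the nearest tested ones on each side, were read out after the values of Mt1 and Mt2 had been seen. Over all genes tested, 39.4% rose and 43.3% fell in DPP4_pos APCs, and 32.1% rose and 33.6% fell in DPP4_neg APCs. Bbs2, which encodes a part of the complex that serves primary cilia, ends 73249 bases before the nearer of the pair. It fell in both populations, with a log2 change of -1.73 ± 0.15 in DPP4_pos (adjusted p = 3.59e-10) and -0.76 ± 0.15 in DPP4_neg APCs (adjusted p = 9.25e-05). Nup93, a nuclear pore gene that begins 34237 bases after Mt1, rose by 0.41 ± 0.04 in DPP4_pos (adjusted p = 5.65e-10) and by 0.26 ± 0.04 in DPP4_neg APCs (adjusted p = 1.23e-06). Ogfod1, 104696 bases before the pair, rose by 0.72 ± 0.05 in DPP4_pos (adjusted p = 3.96e-11) and by 0.18 ± 0.05 in DPP4_neg APCs (adjusted p = 0.00449). Herpud1, a gene of the endoplasmic reticulum stress response 206102 bases after the pair, changed by -0.39 ± 0.04 in DPP4_pos (adjusted p = 5.1e-08) and by 0.00 ± 0.04 in DPP4_neg APCs (adjusted p = 0.991). Nudt21, 135579 bases before the pair, changed by 0.29 ± 0.08 in DPP4_pos (adjusted p = 0.00268) and by -0.05 ± 0.08 in DPP4_neg APCs (adjusted p = 0.58). The gene 9330175E14Rik, 252800 bases after the pair, had a mean of only 11.7 normalized counts. It changed by -1.63 ± 0.40 in DPP4_pos (adjusted p = 0.000732) and by -0.60 ± 0.40 in DPP4_neg APCs (adjusted p = 0.188).

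Steap1 averaged 613.3 ± 46.4 in DPP4_pos isoproterenol and 464.2 ± 40.3 in DPP4_pos vehicle libraries. It averaged 202.1 ± 7.99 in DPP4_neg isoproterenol and 364.9 ± 29.5 in DPP4_neg vehicle libraries. The difference of its responses was 1.25 ± 0.10 (adjusted p = 6.14e-10).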
